A study of Mus musculus with 18 samples.

Results

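The 10 genes of the heat-shock chaperone system are described here across the left ventricle (LV) and right ventricle (RV) of mouse hearts after 0, 4, and 8 h of cold storage. They are Hspa1a, Hspa1b, Hspa8, Hsp90aa1, Hsp90ab1, Hsph1, Dnajb1, Hspb1, Hspd1, and Bag3, of 34989 genes to which the deposited transcripts were summed. The genes were chosen by name, with their levels in these libraries and their changes from 0 h already known. The differences from 0 h therefore chose them and are given as a description, without a test. The 18 libraries are 3 each of LV 0 h, LV 4 h, LV 8 h, RV 0 h, RV 4 h, and RV 8 h. The labels give C57B/L6 mice at 12 weeks of age, and the text of the study gives another age and both sexes, while the labels used here give no sex. Hearts of every group, the 0 h controls included, were flushed with the preservation solution HTK, and after their time in the cold they were perfused outside the body with Krebs buffer for 1 h before both ventricles were collected, while a pressure balloon was placed first in RV and then in LV. The 0 h libraries are thus from perfused hearts, and hearts taken straight from the animal were not part of the comparison. No circulating blood reached the hearts in the circuit, so the groups model preservation and buffer reperfusion of an isolated heart and not a transplant.

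Heat-shock chaperones bind unfolded or misfolded proteins, hold them in solution, and return them to their native state in cycles driven by ATP. Hspa1a and Hspa1b encode the inducible cytosolic HSP70, Hspa8 the constitutive HSP70, Hsp90aa1 the inducible and Hsp90ab1 the constitutive cytosolic HSP90. Dnajb1 encodes an HSP40 that delivers clients to HSP70, and Hsph1 and Bag3 encode nucleotide exchange factors that release them. Bag3 also joins HSP70 to small heat-shock proteins such as Hspb1, the product of which is known as HSP25 in the mouse and binds the cytoskeleton of cardiomyocytes. Hspd1 encodes the HSP60 chaperonin of the mitochondrial matrix. The transcription factor HSF1 induces many of these genes by binding heat-shock elements upstream of their start sites.

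Libraries held 22552581 to 46236771 estimated counts, and the 10 genes took between 0.337% and 1.39% of the counts that were summed to genes. The 7 ventricular cardiomyocyte markers, Myh6 and Myl2 among them, summed to between 48100 and 59700 TPM (transcripts scaled by length and library) at 0 h and between 33100 and 44700 TPM at 8 h, and no ventricular marker was at 0. By edgeR on counts, the median log2 fold change of these 7 at 8 h was -0.18 in LV and -0.30 in RV. With the limits given below, 1 (Myh6) was called lower in LV and 0 in RV. On log2(TPM + 1) the median over all genes moved by -0.28 and -0.35 in these comparisons. Other shares also moved with storage. The 4 neutrophil markers summed to between 0.866 and 2.06 TPM at 0 h and between 6.14 and 35.7 TPM at 8 h, and mitochondrially encoded genes held 22.7% to 32.6% of counts at 0 h and 32.0% to 34.4% at 8 h. The part of these shifts in the values below was not tested. LV and RV libraries of the same time and number are called a heart here. Across genes, the deviations of such a pair from their group means had a Pearson correlation of 0.325 to 0.697 in the 9 pairs. Same-numbered LV and RV libraries of different times, which cannot be 1 heart, had 0.048 to 0.56. The ranges overlap, so the correlation alone does not single out a heart. Replicate 3 was the highest 8 h library for 9 of the 10 genes in LV and for 7 in RV, and the changes that moved most without it are given both ways. Hearts 3 of 8 h, 3 of 4 h, and 2 of 0 h held between 1.47 and 2.44 CPM (library-size-scaled counts) of the Y-linked gene Ddx3y and the other 6 hearts between 62.1 and 115, so that hearts were mixed in this respect within every storage group. Its part in the values below was not tested.

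The upstream sequence of the genes with the clearest start sites is shown first, because heat-shock elements are the sequence feature that the family is known for. A RefSeq promoter window was at hand for 7 of the 10 genes, namely Hspa1a, Hspa1b, Hsph1, Dnajb1, Hspb1, Hspd1, and Bag3. The motif searched was a pair of inverted units, GAANNTTC or TTCNNGAA, each of which reads the same on both strands. Matches could overlap one another. An unbroken run of 3 units reads GAANNTTCNNGAA or TTCNNGAANNTTC. Within the 250 bases upstream of a start site, 5 of these 7 genes held at least 1 match in at least 1 window (Hspa1a, Hspa1b, Hsph1, Hspb1, and Hspd1). Counted by window, 6 of the 10 windows of these genes held a match. Of all 32851 windows of the same length, 12.8% held 1, so the motif is common and a match is a description of the letters only. The 3 genes whose RefSeq and GENCODE start sites coincide, whose window overlaps no annotated exon, and which hold a match are printed 5′ to 3′ on the strand of the gene, with matches in capitals.
Hspa1a: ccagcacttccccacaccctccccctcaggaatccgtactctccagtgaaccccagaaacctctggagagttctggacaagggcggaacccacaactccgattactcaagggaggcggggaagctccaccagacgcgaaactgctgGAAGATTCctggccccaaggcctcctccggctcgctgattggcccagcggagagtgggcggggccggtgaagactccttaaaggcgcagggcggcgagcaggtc
Hspa1b: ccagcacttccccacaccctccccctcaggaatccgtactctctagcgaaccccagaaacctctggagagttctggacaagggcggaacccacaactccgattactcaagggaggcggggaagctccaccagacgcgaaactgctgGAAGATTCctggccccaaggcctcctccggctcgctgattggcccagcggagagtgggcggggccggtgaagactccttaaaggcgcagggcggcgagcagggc
Hspb1: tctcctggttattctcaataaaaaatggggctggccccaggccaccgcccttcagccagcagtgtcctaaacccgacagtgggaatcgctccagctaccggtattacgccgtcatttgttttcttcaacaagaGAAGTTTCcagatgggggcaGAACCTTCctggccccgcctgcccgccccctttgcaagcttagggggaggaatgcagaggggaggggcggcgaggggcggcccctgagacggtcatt
They lie at chr17:34972157-34972406 on the minus strand for Hspa1a, chr17:34959239-34959488 on the minus strand for Hspa1b, and chr5:135887669-135887918 on the plus strand for Hspb1 (GRCm38.p6). The Hspa1a and Hspa1b windows differed at 3 of 250 bases, and in both the match began 104 bases before the start site. Hspb1 held 2 matches, which began 117 and 97 bases before it. For Hspd1, 1 of its 2 windows held 3 overlapping matches, which form an unbroken run of 4 units, and 0.466% of all windows held a run of 3 or more. That window precedes a start site that GENCODE does not share and overlaps exons of Hspd1 and of its neighbor Hspe1, so its sequence is not printed.

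Near-identity also extends to the transcripts. Of the 31-base words of the Hspa1a transcript, 70.1% also occur in transcripts of other genes, and 63.8% occur in Hspa1b. Estimated counts divide shared reads between genes, so the split between Hspa1a and Hspa1b (chromosome 17, 34969190 to 34972156 and 34956436 to 34959238 of GRCm38) is uncertain, and their sum is given beside them. Shared words made up 68.1% of Hspa1b, 55.4% of Hspb1, 52.5% of Hspd1, 51.5% of Hsp90aa1, 40.5% of Hspa8, and 13.2% of Hsp90ab1, and their counts carry the same uncertainty. They made up 0.444% of Dnajb1 and 0 of the words of Hsph1 and Bag3. The gene that shared most was Hsp25-ps1 for Hspb1 and Hspd1-ps3 for Hspd1, both named as pseudogenes.

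Per length, the 10 genes differed widely in level, and the order changed with storage. In LV at 0 h, Hspa8 was the most abundant with 1184 ± 363 TPM (SD, n = 3), followed by Hspb1 (652 ± 211 TPM) and Hsp90ab1 (614 ± 94.7 TPM). The Hspb1 range overlapped those of Hspa8 and Hsp90ab1, and every Hspa8 value (829.9 to 1556 TPM) lay above every Hsp90ab1 value (536 to 719 TPM). Hspd1, Hsp90aa1, and Bag3 lay between 119 and 217 TPM in the mean. Hspa1a (72.3 ± 60.5), Hspa1b (50.7 ± 50.2), Hsph1 (42.2 ± 24), and Dnajb1 (38.6 ± 21 TPM) were the 4 lowest and did not differ from one another beyond their spread. After 4 h in LV, Hspa1a (496 ± 49.7 TPM) and Hspa1b (448 ± 40.4 TPM) each lay above Hspd1 and Bag3 in every library. In RV at 0 h the order also ran from Hspa8 (978 ± 372 TPM) to Dnajb1 (19.0 ± 6.65 TPM), with Hsp90ab1 in place of Hspb1 after Hspa8 and Bag3 before Hsp90aa1, both within overlapping ranges. At 8 h in RV, Hspa1a (520 ± 347 TPM) and Hspa1b (508 ± 387 TPM) had ranges that overlapped that of Hsp90ab1 (660.0 ± 28.0 TPM). Summed over the 10 genes, the level was 3118 ± 927 TPM in LV at 0 h, 5482 ± 160 at 4 h, and 4143 ± 1370 at 8 h. The sum for RV was 2579 ± 773 at 0 h, 4045 ± 679 at 4 h, and 5039 ± 1110 TPM at 8 h. Without replicate 3, the mean at 8 h was 3367 TPM for LV and 4400.0 TPM for RV. On log2(TPM + 1) the median over all genes moved by -0.28 in LV and -0.35 in RV in the comparison of 8 h with 0 h. In the comparison of 8 h with 4 h it moved by -0.19 and -0.20. The part of this shift in the sums was not tested.

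**Figure D1:**
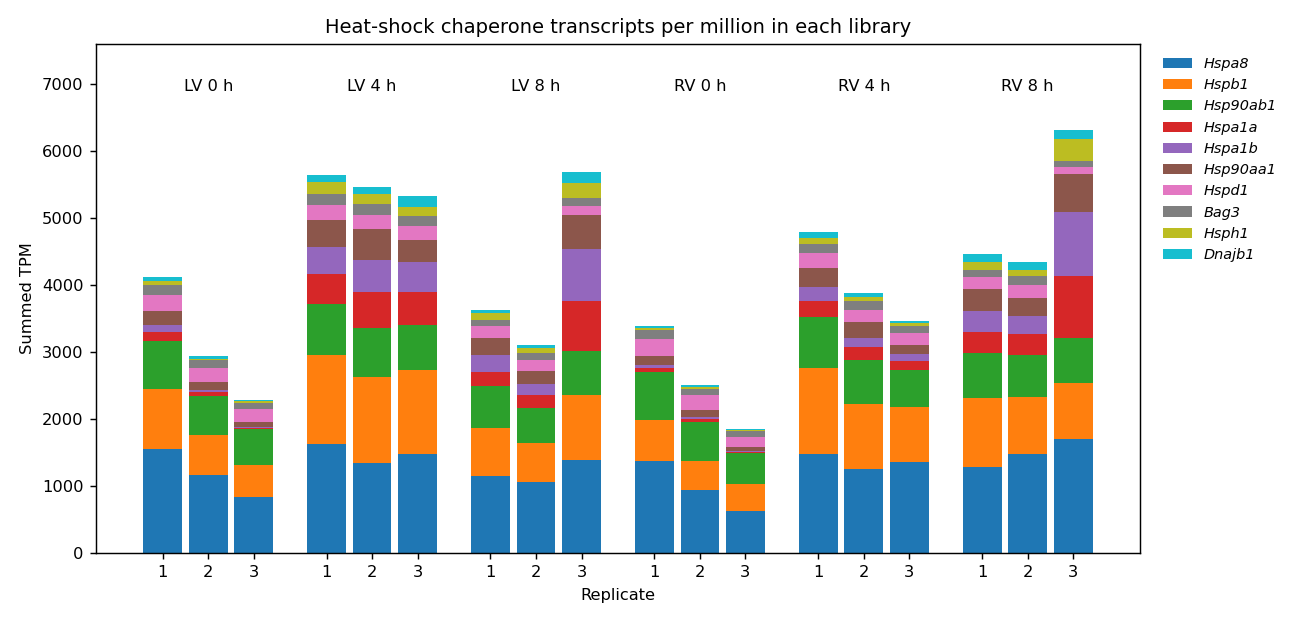
Stacked bars give the TPM of each of the 10 genes in the 18 libraries, 3 per ventricle and storage time. The summed level ran from 1847 TPM in RV 0 h replicate 3 to 6317 TPM in RV 8 h replicate 3, and the share of Hspa1a and Hspa1b in the stack was largest in replicate 3 of 8 h in both ventricles.

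The inducible HSP70 genes had the widest range of the 10. Levels of single genes are given from here on as CPM, counts scaled to the TMM-adjusted library size, in the order of replicates 1, 2, and 3. Hspa1a was at 313.4, 136, and 39.5 CPM in LV at 0 h, at 1111, 1245, and 1272 CPM at 4 h, and at 580.5, 506, and 2252 CPM at 8 h. In RV it was at 122.8, 96.6, and 33.1 CPM at 0 h, at 639.6, 457, and 360.3 CPM at 4 h, and at 922, 895, and 2844 CPM at 8 h. In both ventricles each of the 6 stored libraries exceeded the highest 0 h library, the 4 h libraries of LV lay close together, and at 8 h replicate 3 was far above the others. The log2 fold change from 0 h was 2.89 (SE 0.772) at 4 h and 2.78 (SE 0.768) at 8 h in LV, and 2.54 (SE 0.597) and 4.24 (SE 0.644) in RV. In tissue RNA, more RNA per cell and more cells of a type that makes it cannot be told apart, here and below. Hspa1b was at 230.5, 68.6, and 24.4 CPM in LV at 0 h, at 955, 1049, and 1079 CPM at 4 h, and at 605, 452, and 2152 CPM at 8 h. RV held 91.8, 70.1, and 23.6 CPM at 0 h, 492, 316, and 227 CPM at 4 h, and 832, 696, and 2777 CPM at 8 h. The groups separated as those of Hspa1a did, and the fold between the highest and the lowest of the 18 libraries was 118 for Hspa1b and 85.9 for Hspa1a. With the counts of both genes summed, the log2 fold change from 0 h was 3.05 (SE 0.795) at 4 h and 3.02 (SE 0.794) at 8 h in LV and 2.52 (SE 0.625) and 4.39 (SE 0.679) in RV, and without replicate 3 of 8 h it was 1.97 at 8 h in LV and 3.52 in RV.

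The size of these changes moved with replicate 1 of 0 h and replicate 3 of 8 h. At 0 h, replicate 1 was the highest library for all 10 genes in both ventricles, where it was the highest for 31.7% of all genes tested in LV and 29.8% in RV. Without LV 0 h replicate 1, the log2 fold change of Hspa1b in LV was 4.47 at 4 h and 4.53 at 8 h in place of 3.25 and 3.32. At 8 h, replicate 3 was the highest for 9 of the 10 genes in LV (35.4% of all genes) and for 7 in RV (34.8%). Without LV 8 h replicate 3, the change of Hspa1a at 8 h in LV was 1.72, that of Hspa1b 2.28, and the median over the 10 genes 0.48 in place of 1.03. Without RV 8 h replicate 3, the changes of Hspa1a and Hspa1b in RV were 3.44 and 3.63, and the median was 1.71 in place of 1.91. Without replicate 3 of 8 h, the change of Hsph1 at 8 h was 1.10 in LV and 2.11 in RV, and in LV that of Hsp90aa1 was 0.985, of Hspb1 0.28, of Hspa8 0.11, of Hsp90ab1 0.14, and of Bag3 0.00.

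Hsp90aa1, Hsph1, and Dnajb1, the inducible HSP90, the HSP110 exchange factor, and the HSP40 that works with HSP70, also stood higher in every stored library, at lower amplitude. Hsp90aa1 (chromosome 12, 110690605 to 110702728) was at 317, 176, and 151 CPM in LV at 0 h, at 696, 594, and 573 CPM at 4 h, and at 460.1, 396, and 949 CPM at 8 h. The RV libraries were at 208, 144, and 119 CPM at 0 h, at 594, 376, and 299 CPM at 4 h, and at 729, 630.5, and 1312 CPM at 8 h. Stored libraries of a ventricle all exceeded its 0 h libraries, and in RV every 8 h library lay above every 4 h library. Its log2 fold change was 1.54 (SE 0.370) at 4 h and 1.49 (SE 0.369) at 8 h in LV and 1.44 (SE 0.375) and 2.53 (SE 0.389) in RV. Hsph1 (chromosome 5, 149614287 to 149636376) was at 115, 54.5, and 67.6 CPM in LV at 0 h, at 338, 232, and 226 CPM at 4 h, and at 193, 148, and 509 CPM at 8 h. In RV it was at 67.4, 48.9, and 50.7 CPM at 0 h, at 222, 128, and 90.4 CPM at 4 h, and at 249, 229, and 795 CPM at 8 h. The groups were ordered as for Hsp90aa1, with the widest spread at 8 h, and the log2 fold change was 1.75 (SE 0.467) and 1.85 (SE 0.468) in LV and 1.41 (SE 0.514) and 2.97 (SE 0.543) in RV at 4 h and 8 h. Dnajb1 (chromosome 8, 83608193 to 83612653) was at 128, 96.8, and 35.6 CPM in LV at 0 h, at 260, 270, and 409 CPM at 4 h, and at 139, 140.5, and 498 CPM at 8 h. RV levels were 50.5, 46.4, and 30.3 CPM at 0 h, 226, 137, and 94.8 CPM at 4 h, and 349, 322, and 434 CPM at 8 h. Stored libraries again lay above all 0 h libraries, by little in LV at 8 h outside replicate 3, and its 8 h libraries in RV were closer together than those of the other inducible genes. The log2 fold change of Dnajb1 was 1.85 (SE 0.587) and 1.58 (SE 0.582) in LV and 1.86 (SE 0.333) and 3.14 (SE 0.350) in RV, and 0.68 in LV at 8 h without replicate 3.

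**Figure D2:**
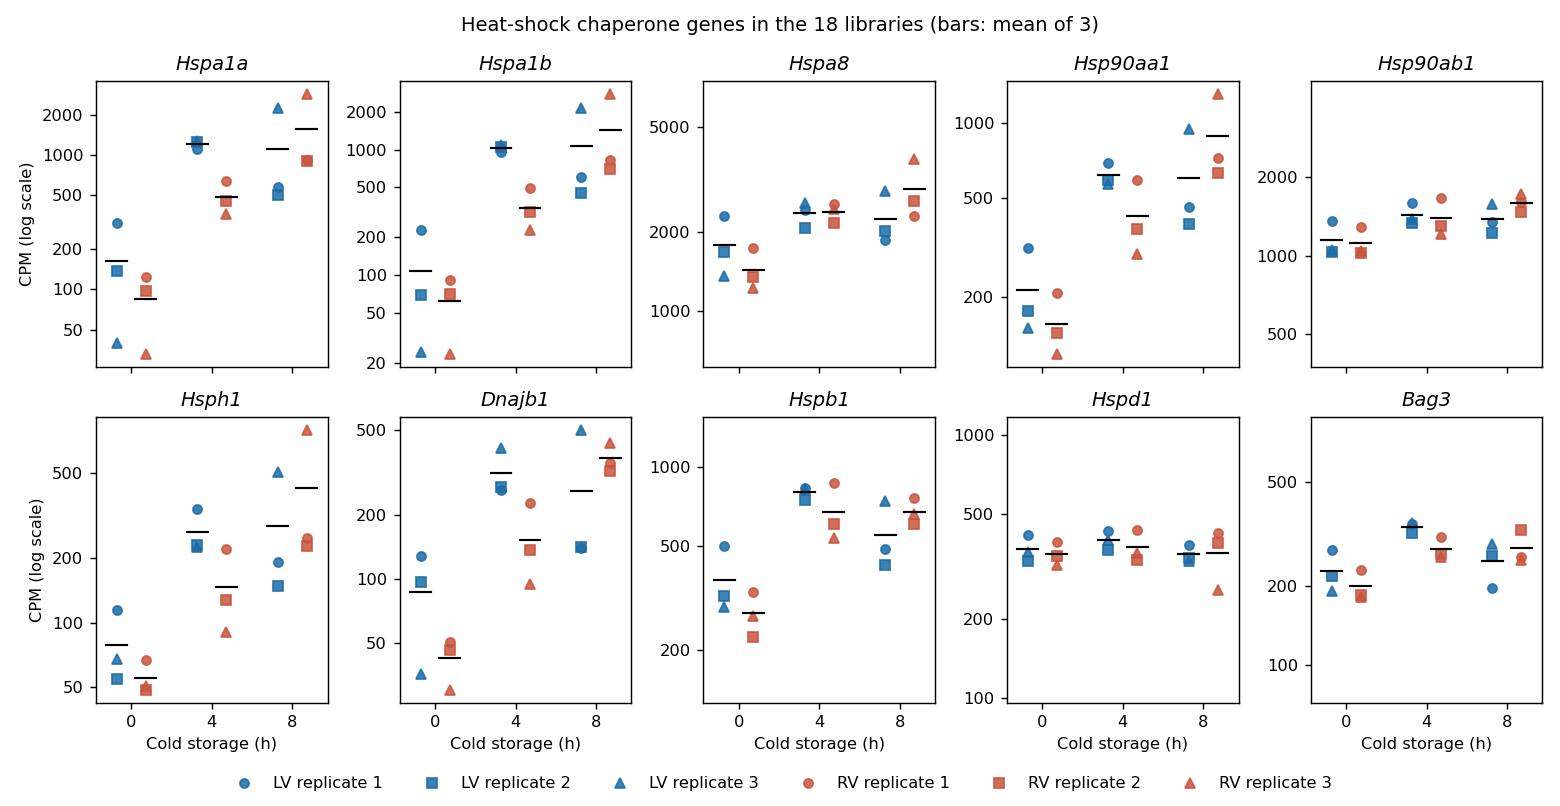
Each panel gives the CPM of a gene on a log axis against hours of cold storage, with LV in blue, RV in red, a marker shape per replicate, and a bar at the mean of 3. Hspa1a, Hspa1b, Hsp90aa1, Hsph1, and Dnajb1 lie higher in all 6 stored libraries than at 0 h in both ventricles, whereas the Hspd1 points stay between 257 and 438 CPM.

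Hspb1 and Hspa8, both abundant before storage, moved less. Hspb1 (chromosome 5, 135887919 to 135889563) was at 497, 322, and 292 CPM in LV at 0 h, at 830.5, 745, and 821 CPM at 4 h, and at 488, 420.3, and 739 CPM at 8 h. The RV values were 333, 225, and 268 CPM at 0 h, 866, 605, and 536 CPM at 4 h, and 759, 604, and 657 CPM at 8 h. In LV the 8 h libraries overlapped those of 0 h and all lay below those of 4 h, while in RV both stored groups lay above 0 h. Its log2 fold change was 1.11 (SE 0.252) at 4 h and 0.57 (SE 0.249) at 8 h in LV and 1.29 (SE 0.236) and 1.30 (SE 0.236) in RV. Hspa8 (chromosome 9, 40800984 to 40810087) was at 2305, 1672, and 1350 CPM in LV at 0 h, at 2427, 2073, and 2568 CPM at 4 h, and at 1852, 2007, and 2854 CPM at 8 h. In RV it was at 1739, 1349, and 1216 CPM at 0 h, at 2552, 2150, and 2437 CPM at 4 h, and at 2287, 2628, and 3778 CPM at 8 h. The LV groups overlapped, and in RV all stored libraries exceeded all 0 h libraries. Its log2 fold change was 0.41 (SE 0.226) and 0.34 (SE 0.226) in LV and 0.75 (SE 0.253) and 1.04 (SE 0.255) in RV at 4 h and 8 h.

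The constitutive HSP90 gene Hsp90ab1 (chromosome 17, 45567775 to 45573271), the cochaperone gene Bag3 (chromosome 7, 128523616 to 128546981), and the mitochondrial HSP60 gene Hspd1 (chromosome 1, 55077835 to 55088243) varied least. Over the 18 libraries, the highest level was 1.67 times the lowest for Hsp90ab1, 1.70 times for Hspd1, and 1.91 times for Bag3. Bag3 lay above all 0 h libraries in the 3 LV libraries of 4 h (318 to 348 CPM against 192 to 274 CPM) and was back in the 0 h range in 2 of the 3 libraries of 8 h. In RV, 6 of 6 stored libraries of Bag3 lay above 0 h, with log2 fold changes of 0.49 (SE 0.182) at both times. The log2 fold change of Hsp90ab1 ran from 0.26 to 0.53 over the 4 comparisons and that of Hspd1 from -0.07 to 0.11. Hspd1 was between 321 and 418 CPM at 0 h and between 257 and 438 CPM after storage over both ventricles.

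**Figure D3:**
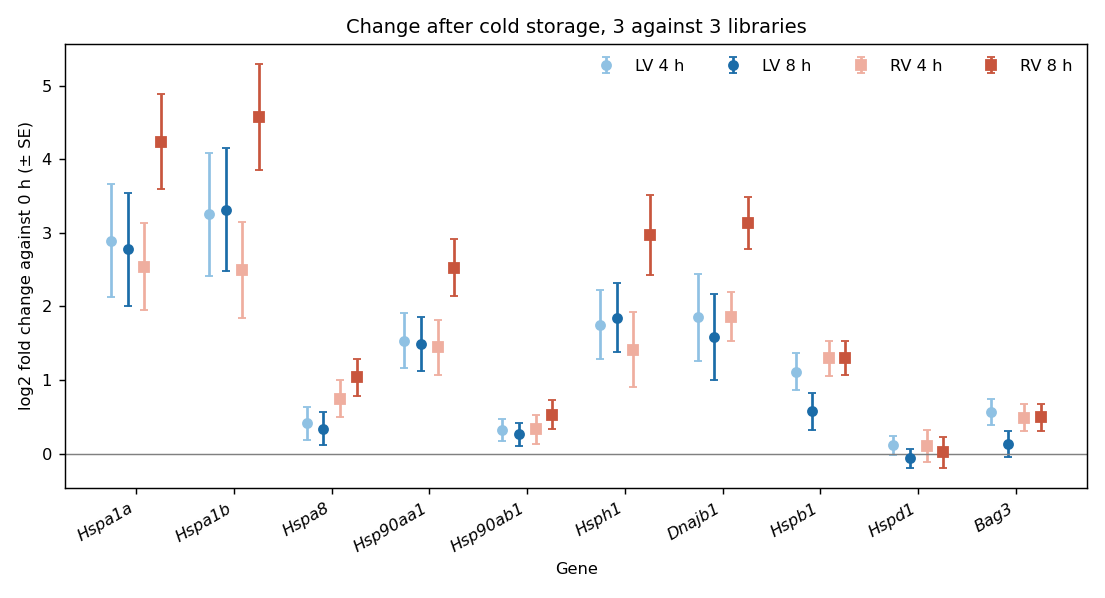
The log2 fold change from 0 h is given for each gene, with the standard error as bars, at 4 h and 8 h in LV (circles) and RV (squares), each for 3 against 3 libraries. Values run from -0.07 for Hspd1 in LV at 8 h to 4.57 for Hspa1b in RV at 8 h.

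Over the 10 genes, the median log2 fold change at 4 h and 8 h was 1.32 and 1.03 for LV and 1.35 and 1.91 for RV, against medians of all genes between -0.07 and 0.00. All 3 libraries of 4 h lay above all 3 of 0 h for 7 of the 10 genes in LV and 8 in RV, where this held for 12.8% and 14.8% of all genes, and all 3 libraries of 8 h did for 5 in LV and 9 in RV (15.5% and 18.3% of all genes). Because these contrasts chose the genes, nothing is read from the counts. The 4 h and 8 h comparisons share their 0 h libraries, and those are the libraries in which replicate 1 was high.

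The step from 4 h to 8 h was tested directly. It uses libraries that also enter the contrasts from 0 h. A call needed an adjusted p (Benjamini-Hochberg) below 0.1 together with a change of more than 1.5-fold, limits that the study also used. By edgeR's quasi-likelihood test, 0% of genes were called in LV and 0% in RV, so none of the 10 was, although 1180 genes in LV and 961 in RV had an unadjusted p under 0.05. These included 5 of the 10 genes in RV, all higher at 8 h, as were 4.32% of all genes at that p. They were Dnajb1 (log2 difference 1.27, SE 0.328), Hspa1b (2.08, SE 0.646), Hspa1a (1.70, SE 0.579), Hsph1 (1.55, SE 0.516), and Hsp90aa1 (1.08, SE 0.371), each with an edgeR adjusted p of 0.599. For all 5 genes, every 8 h library lay above every 4 h library. The share of all genes separated in this way between 4 h and 8 h was not counted. Nothing is therefore read from such a separation, here or for LV below. DESeq2 called 2 of them higher in RV, Dnajb1 (1.30) and Hspa1b (2.11), where it called 0.226% of all genes higher, and none of the 10 in LV, where it called 0.474% of all genes. Without RV 8 h replicate 3 the edgeR log2 difference was 1.14 for Dnajb1, 1.14 for Hspa1b, 0.90 for Hspa1a, 0.70 for Hsph1, and 0.68 for Hsp90aa1. In LV the differences of these 5 ran from -0.27 to 0.10, and without LV 8 h replicate 3 from -1.16 to -0.54, that is, lower at 8 h than at 4 h in all 5. In LV the lowest adjusted p of the 10 genes was 0.595 for Bag3 (log2 difference -0.43, SE 0.176). Both Bag3 and Hspb1 (log2 difference -0.54, SE 0.249) were lower in every 8 h library than in every 4 h library of LV.

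The ventricles were then compared within hearts, first as a description. At 0 h, LV was the higher ventricle in 28 of the 30 combinations of gene and heart, and at 4 h in 25, whereas at 8 h RV was higher in 26 of 30. Most of the genes varied together and each time had 3 hearts, so the 30 are not separate observations. The same share over all genes was not counted, so nothing is read from these counts. Without pairing, the median log2 difference of LV from RV over the 10 genes was 0.44, 0.42, and -0.40 at 0 h, 4 h, and 8 h. Over all genes it lay between -0.01 and 0.01. For Hspa1a, the log2 ratio of LV to RV was 1.35, 0.49, and 0.25 in the 3 hearts of 0 h, 0.80, 1.45, and 1.82 in those of 4 h, and -0.67, -0.82, and -0.34 in those of 8 h. For Hsph1, it was 0.77, 0.16, and 0.42 at 0 h, 0.61, 0.86, and 1.32 at 4 h, and -0.37, -0.63, and -0.64 at 8 h. For Hsp90aa1, it was 0.61, 0.28, and 0.34 at 0 h, 0.23, 0.66, and 0.94 at 4 h, and -0.66, -0.67, and -0.47 at 8 h. For all 3 genes, LV was higher in every heart at 0 h and 4 h and lower in every heart at 8 h on CPM. The same held on TPM except for Hsph1 at 0 h, where LV was higher in 2 of 3 hearts. Hspa8 stood at -0.30, -0.39, and -0.40 at 8 h, with 3 of 3 hearts above 0 at 0 h. Dnajb1 stood at -1.33, -1.20, and 0.20 at 8 h, where heart 3, the heart with the high levels, was the exception. On the TPM scale, the mean log2 ratio kept its sign in all of these 5 genes at 0 h and 8 h. At 4 h the mean for Hspa8 turned from -0.02 on CPM, with 1 of 3 hearts higher in LV, to 0.12 on TPM, with 3 of 3.

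**Figure D4:**
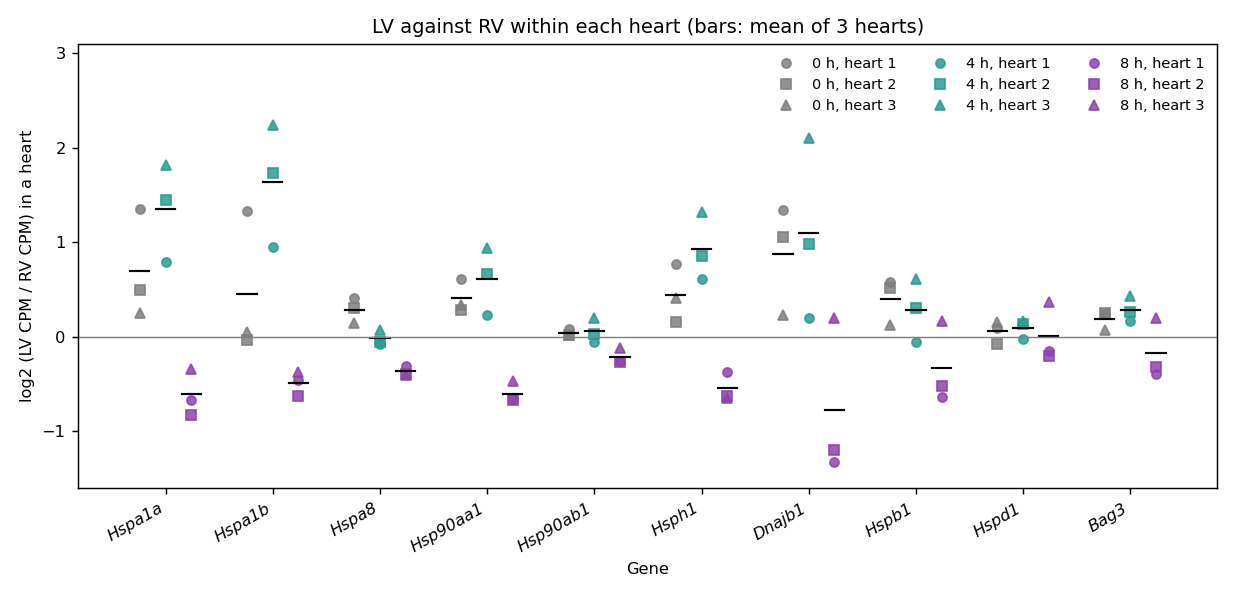
The log2 ratio of LV CPM to RV CPM within a heart is given for each gene at 0 h (grey), 4 h (green), and 8 h (purple), with a marker shape per heart and a bar at the mean of 3. Values above 0 are higher in LV. The 8 h points lie under 0 in 3 of 3 hearts for Hspa1a, Hspa1b, Hspa8, Hsp90aa1, Hsp90ab1, and Hsph1.

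Whether these differences passed a test depended on the pairing of ventricles. The levels in all 18 libraries were known when the genes were chosen, which the p-values do not take into account. Without pairing, edgeR called none of the 10 genes between LV and RV at 0 h, 4 h, or 8 h, where 0.159%, 0.0133%, and 0.0331% of all genes were called, and none had an unadjusted p under 0.05. DESeq2 without pairing called none of them either, where it called 0.411%, 0.166%, and 1.25% of all genes between LV and RV at 0 h, 4 h, and 8 h. With LV and RV of a heart paired in edgeR, 4 of the 10 genes were higher in LV at 4 h, where 0.835% of all genes were. These were Hspa1b (log2 difference 1.64, adjusted p = 0.0122), Hspa1a (1.36, adjusted p = 0.0119), Hsph1 (0.93, adjusted p = 0.00979), and Hsp90aa1 (0.61, adjusted p = 0.0342), each in 3 of 3 hearts. At 8 h, 2 were higher in RV, where 6.53% of all genes were. These were Hspa1a (log2 difference of LV from RV -0.61, adjusted p = 0.0591) and Hsp90aa1 (-0.60, adjusted p = 0.00673). Hspa8 (-0.37, adjusted p = 0.0157) and Hsph1 (-0.55, adjusted p = 0.0161) passed the p at 8 h with a fold change under 1.5. At 0 h none of the 10 was called, where 1.85% of all genes were, and 6 were higher in LV at an unadjusted p under 0.05, where 7.25% of all genes were. Without 8 h heart 3, 2 of the 10 (Hspa1a and Dnajb1) were called higher in LV at 0 h, where 1.13% of all genes were.

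The change itself was then compared between the ventricles with hearts paired. Differences in the change from 0 h are made of the changes that chose the genes. Their calls and p-values are therefore a description, and no conclusion is drawn from them. From 0 h to 8 h, 6 of the 10 genes rose more in RV than in LV by edgeR, where 4.72% of all genes did. They were Dnajb1 (LV minus RV -1.67 on the log2 scale, adjusted p = 0.0721), Hspa1a (-1.31, adjusted p = 0.0257), Hsp90aa1 (-1.01, adjusted p = 0.00677), Hsph1 (-0.997, adjusted p = 0.0126), Hspb1 (-0.74, adjusted p = 0.0875), and Hspa8 (-0.66, adjusted p = 0.0128). Hspa1b had -0.94 with an adjusted p of 0.155. Each of 9 refits left out 1 heart. Hsp90aa1, Hsph1, and Hspa8 were called in 9 of 9 refits, Hspa1a in 8, Dnajb1 in 4, and Hspb1 in 3, and 3 genes were called without 0 h heart 1. From 0 h to 4 h none of the 10 was called, where 0.305% of all genes were, and 3 had an unadjusted p under 0.05, as had 8.90% of all genes. For the step from 4 h to 8 h, a comparison added after the data had been seen, 0% of all genes were called without pairing. With pairing, 4 genes differed toward RV, where 0.345% of all genes did. They were Hspa1b (LV minus RV -2.13, adjusted p = 0.0634), Hspa1a (-1.96, adjusted p = 0.0629), Hsph1 (-1.48, adjusted p = 0.0611), and Hsp90aa1 (-1.21, adjusted p = 0.0611). None of these 4 was called when 4 h heart 2, 4 h heart 3, 8 h heart 1, or 8 h heart 2 was left out, 1 was without 0 h heart 2, and 7 of the 10 genes were called toward RV without 8 h heart 3, where 2.35% of all genes were. At 4 h alone, 1 gene (Hsph1) was called without heart 2 and without heart 3, and at 8 h alone 1 was called without heart 1 and 0 without heart 2.

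Lists of 86 further genes of the chaperone system, among them regulators, co-chaperones, and the chaperones of other compartments, gave 85 genes tested against 0 h. In LV, edgeR called 1 of the 85 (1.18%) higher at each storage time, where 2.40% of all genes were at 4 h and 5.46% at 8 h. It was the HSP90 co-chaperone Fkbp5, an immunophilin known as a glucocorticoid target. None was called lower in LV, where 0.398% and 1.26% of all genes were. In RV, 4 of the 85 (4.71%) were called higher and 2 (2.35%) lower at 4 h, where 6.17% and 3.91% of all genes were. At 8 h in RV, 8 (9.41%) were higher and 2 (2.35%) lower, against 13.0% and 5.26% of all genes. With the replicate number as a block, 10 were higher and 4 lower in RV at 8 h, where 15.5% and 8.81% of all genes were. None of these shares exceeded that of all genes. Over all 85 genes, the median log2 fold change at 4 h and 8 h was 0.10 and 0.03 for LV, and 0.17 and 0.03 for RV. These counts moved with single libraries. Without RV 0 h replicate 3, 0 genes were called at 4 h and 1 at 8 h in RV, and without RV 0 h replicate 2, 0 and 2 were. Without LV 0 h replicate 2, LV 0 h replicate 3, or LV 8 h replicate 3, none was called in LV at 8 h, and the LV call at 4 h was lost without LV 0 h replicate 2 or 3, any LV 4 h replicate, or LV 8 h replicate 1 or 2. Fkbp5 rose by 1.49 (SE 0.356, edgeR adjusted p = 0.0888) and 1.60 (SE 0.357, adjusted p = 0.0471) in LV and by 1.41 (SE 0.377, adjusted p = 0.0604) and 1.52 (SE 0.378, adjusted p = 0.0297) in RV. It was the only gene of the 85 called in all 4 comparisons.

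Of the 14 J-domain co-chaperones, which stimulate the ATPase of HSP70, 3 rose at each time in RV, where 6.17% and 13.0% of all genes did. None passed the test in LV, where 2.40% and 5.46% of all genes rose. For the difference between the ventricles in the change to 4 h or 8 h, 0 of the 14 were called without pairing. With hearts paired, 0 were called at 4 h and 3, toward RV, at 8 h. Dnaja1 was at 121, 78.3, and 59.7 CPM in RV at 0 h, at 354, 197, and 192 CPM at 4 h, and at 371, 403, and 831 CPM at 8 h. It rose in RV by 1.53 (SE 0.416, edgeR adjusted p = 0.0635) and 2.66 (SE 0.432, adjusted p = 0.00614), and had 1.38 (adjusted p = 0.212) and 1.51 (adjusted p = 0.116) in LV. Dnajb4 rose in RV by 1.14 (adjusted p = 0.052) and 0.92 (adjusted p = 0.067), and Dnaja4 by 0.89 (adjusted p = 0.0225) at 4 h. Of the 16 HSP90 co-chaperones, 4 rose in RV at 8 h, where 13.0% of all genes did. Fkbp5 had the largest change, then Ptges3 (0.77, adjusted p = 0.0368) and Stip1 (0.69, adjusted p = 0.0291), which encode p23 and the adaptor between HSP70 and HSP90. Of the 9 other HSP70 and HSP110 genes, Hspa1l rose (1.15, adjusted p = 0.0483) and Hspa12b fell (-2.18, adjusted p = 0.0322) in RV at 8 h. At 4 h in RV, Hspa1l had 0.86 (adjusted p = 0.161, and 0.0312 with the block). At 8 h in RV, Hspa2 had 0.79 (adjusted p = 0.257, and 0.088 with the block) and Hspa12a had -0.61 (adjusted p = 0.206, and 0.0507 with the block), both named after their values were seen. Hspa1l shares 31-base words with Hspa1a and Hspa1b, so its count is uncertain, and Hspa12b is known as an endothelial member of the family. The 6 endothelial markers summed to between 308 and 404 TPM in RV at 0 h and between 175 and 252 TPM at 8 h. By edgeR, however, their median log2 fold change in RV at 8 h was 0.28, and 1 of the 6 (Egfl7) was called lower. On log2(TPM + 1) the median over all genes moved by -0.35 in this comparison. The part of endothelial cells in the fall of Hspa12b was not tested. Bag4, 1 of 6 BAG genes, fell in RV at 8 h (-0.75, adjusted p = 0.0697). It was low, at 4.27 to 5.76 CPM in RV at 0 h and 2.52 to 3.24 CPM at 8 h. Its TPM ranges overlapped (1.00 to 1.63 at 0 h and 0.548 to 1.16 at 8 h).

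Hsf1, the inducer named above, did not pass the test at either time. It lay between 28.2 and 34.5 CPM in all 18 libraries, with log2 fold changes between 0.01 and 0.08 in the 4 comparisons with 0 h. Hsf2 had -0.45 (edgeR adjusted p = 0.0696) in LV at 8 h with a fold change under 1.5, and Hsf4 fell in RV at 4 h (-0.79, adjusted p = 0.0806) and had -0.60 at 8 h (adjusted p = 0.118, and 0.0716 with the replicate number as a block). Hsf4 was low, at 3.57 to 4.67 CPM in RV at 0 h and 2.07 to 2.53 CPM at 4 h. Without the block, no gene passed the test in any of the 4 comparisons among the 6 small heat-shock proteins, the 8 mitochondrial chaperones and proteases, the 7 tested subunits of the CCT chaperonin, and the 15 endoplasmic reticulum chaperones. Cryab, the abundant small heat-shock protein of the heart, had log2 fold changes between -0.08 and 0.27, and Hspa5, the HSP70 of the endoplasmic reticulum, between 0.21 and 0.58. With the block, Hspa5 passed the test in RV at 8 h (0.61, edgeR adjusted p = 0.0963, against 0.160 without). Hspe1, the cofactor of Hspd1, had between 0.17 and 0.58, and Hspa4l, an HSP110 relative of Hsph1, between -0.09 and 0.28.

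**Figure D5:**
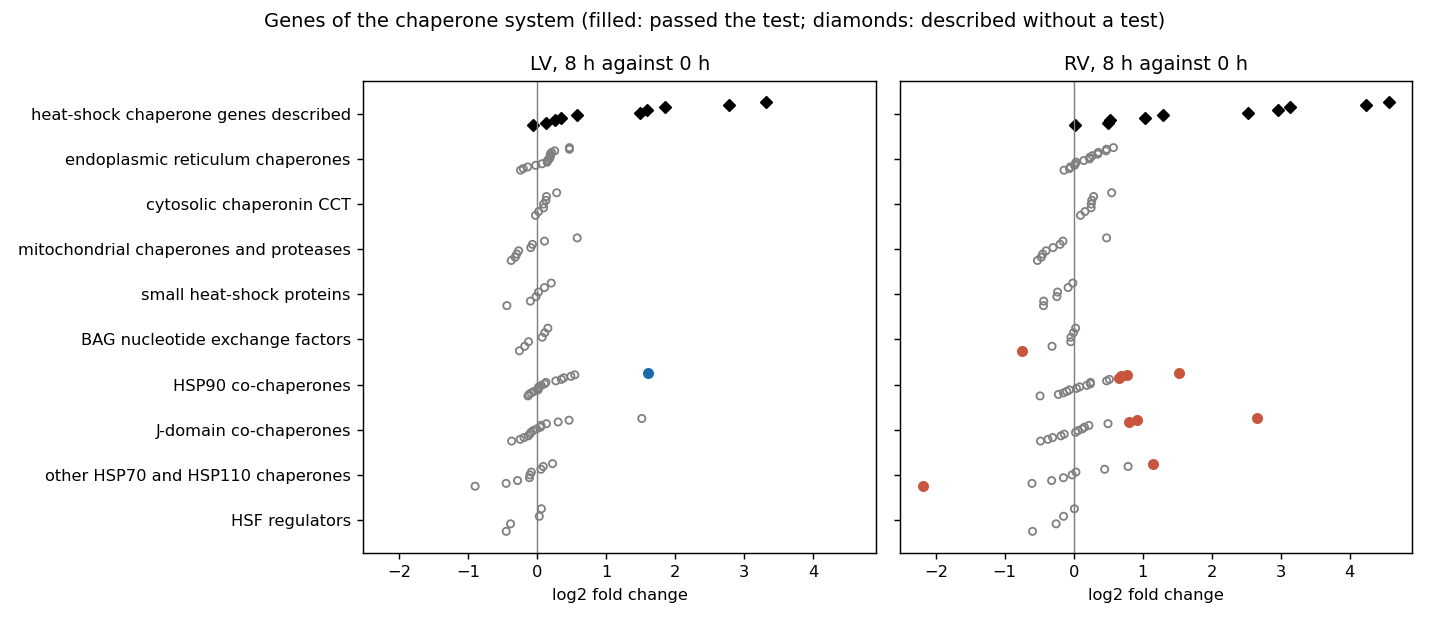
Points give the log2 fold change of each listed gene at 8 h against 0 h in LV (left) and RV (right), 1 row per list, filled where the gene passed the test. Black diamonds are the 10 genes of the report, drawn for scale and described without a test, and 1 of 85 listed genes passed in LV and 10 of 85 in RV.

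Transcript composition is a measure that the choice of the genes did not use. In this set, 4 have transcripts annotated as not protein coding, and the share of the gene's TPM in these was compared between the 6 stored and the 3 unstored libraries of a ventricle by an exact permutation test, two-sided, for which the smallest possible p is 0.0238. No share differed after adjustment over the 8 tests. The largest difference was that of Hsph1 in LV, with 52.7%, 26.6%, and 24.7% at 0 h and a mean of 52.5% in stored libraries against 34.7% at 0 h (exact permutation p = 0.0952, adjusted p = 0.476). In RV the Hsph1 share was 35.2% in both (exact permutation p = 0.976, adjusted p = 0.976). The Hsp90aa1 share had a mean of 33.3% in stored libraries of LV against 24.6% (exact permutation p = 0.190, adjusted p = 0.476) and of 22.7% against 25.7% in RV (exact permutation p = 0.476, adjusted p = 0.762). As shares of estimated counts in place of TPM, the difference in LV was 11.5 percentage points for Hsph1 (exact permutation p = 0.119, adjusted p = 0.429), against 17.8 by TPM, and 1.96 for Hsp90aa1 (exact permutation p = 0.0714, adjusted p = 0.429), against 8.66 by TPM. Leaving out 1 library moved the TPM difference in LV from 12.8 to 26.9 percentage points for Hsph1 and from 4.36 to 12.3 for Hsp90aa1. Short transcripts weigh more in TPM than in counts, and the Hsph1 transcript of highest mean share, a retained intron of 751 bases, alone held between 18.8% and 40.9% of the TPM of its gene.

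The 10 genes did not all follow 1 pattern over the libraries. The Pearson correlation of a gene's standardized log2 CPM with the mean of the other 9, over the 18 libraries, was 0.813 or higher for 9 genes and 0.128 for Hspd1. The libraries share hearts and storage groups, so these values are a description and carry no p. Among 8003 other genes with a mean of at least 5 TPM, the 10 most like the mean of the 10 were Gadd45g (r = 0.983), Junb (0.961), Adamts1 (0.953), Dnaja1 (0.951), Sik1 (0.951), Ier5 (0.950), Myc (0.948), Rasd1 (0.947), Gem (0.943), and Trib1 (0.942). Of these 10, Dnaja1 is on the chaperone lists.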

How the data were processed

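RNA of LV and RV from hearts stored for 0, 4, and 8 h was sequenced in 18 libraries, and groups and replicate numbers were taken from the labels. The authors quantified reads with kallisto at default settings against GRCm38 transcripts and deposited, per transcript and library, estimated counts that are not normalized between libraries, TPM values scaled within a library, and the length and effective length in bases (other). Of 111462 transcripts, 110203 were matched to 34989 GENCODE M21 genes, summed per gene and rounded, and 1259 were left out. Low genes are measured less precisely, and since estimated counts are not independent molecules no counting interval is given.

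After filterByExpr, edgeR 4.0.16 (TMM, quasi-likelihood test, Benjamini-Hochberg over all genes tested) was run in R 4.3.3, and calls needed an adjusted p below 0.1 and more than a 1.5-fold change. Standard errors (SE) are the absolute log2 fold change divided by the square root of the F statistic. Storage comparisons used the 9 libraries of a ventricle and comparisons of ventricles all 18. Nothing in the labels says that replicates are separate animals, so p-values measure the spread between libraries. Same-numbered LV and RV libraries deviated together at each time (r of 0.325 to 0.697 over 9 pairs), so they were paired as hearts, which fits the sampling of LV and RV from each heart in the study. Same-numbered libraries of different times also deviated together in RV (r of 0.111 to 0.487), and in LV between 4 h and 8 h (r of 0.358 to 0.568). The blocked value is given where it changes a call in RV. In LV, 1 of the 85 further chaperone genes was called at each storage time with the block, as without it. Alternatives were RLE size factors, no filter, DESeq2 1.42.0, length offsets, mitochondrial genes left out, limma 3.58.1 on log2(TPM + 1), a stricter threshold, all libraries in 1 fit, the replicate block, and libraries or hearts left out. Python 3.11.15 and scipy 1.17.1 were used.

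The 10 genes and all lists were chosen with earlier results of these data known. Named beside them were up to 3 genes per list with the largest change among those called in a comparison with 0 h, 7 further chaperone genes, and the 10 genes with the most similar pattern. Cct6a was on a list and was not matched. Promoters are from RefSeq (GRCm38.p6).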

Additional observations from a re-analysis of the deposited data

Results flagged for a closer look

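Libraries come in groups of 3, in which no single library was tested for standing apart. With the ventricles of a heart paired, the step from 4 h to 8 h differed between LV and RV in some genes by edgeR. That comparison was added after the data had been seen. LV minus RV on the log2 scale was -2.13 for Hspa1b, -1.96 for Hspa1a, -1.48 for Hsph1, and -1.21 for Hsp90aa1. None of the differences in this step was called without pairing. Differences in the change from 0 h are made of the changes that chose the genes and are given without a test. From 0 h to 8 h, LV minus RV was -1.67 for Dnajb1, -1.31 for Hspa1a, -1.01 for Hsp90aa1, and -0.997 for Hsph1. It was -0.94 for Hspa1b, -0.74 for Hspb1, -0.66 for Hspa8, -0.36 for Bag3, -0.25 for Hsp90ab1, and -0.05 for Hspd1.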

How the results depend on the processing

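Leaving out 1 library moved the median log2 fold change of the 10 genes from 0 h between 1.15 and 1.65 in LV at 4 h, 0.48 and 1.36 in LV at 8 h, 1.02 and 1.53 in RV at 4 h, and 1.71 and 2.12 in RV at 8 h. Of single-gene differences from 0 h under another setting, 676 of 688 kept their sign, and the others were of Hspd1, Bag3, and Hsp90ab1. In the other comparisons, 1574 of 1676 did. On log2(TPM + 1) with limma the median over all genes moved by -0.35 to -0.10, and that of the 10 genes in RV at 8 h was 1.48. Further chaperone genes called at 4 h in LV numbered 0 with an adjusted p under 0.05, RLE size factors, length offsets, mitochondrial genes left out, or log2(TPM + 1), and 2 with DESeq2, with 0 to 2 across left-out libraries. At 8 h in LV they numbered 3 with DESeq2 and 9 with log2(TPM + 1) (0 to 5). In RV they numbered 1 with the stricter p and 3 with log2(TPM + 1) at 4 h (0 to 7) and 16 with log2(TPM + 1) at 8 h (1 to 18). The cause of these differences was not tested. DESeq2 called 2 chaperone genes in RV between 8 h and 4 h. With the replicate block, the genes called of the 10 numbered 4 between LV and RV at 4 h, 2 at 8 h, 6 for the change from 0 h to 8 h, and 4 for the step from 4 h to 8 h, and leaving out hearts gave 1 to 5, 0 to 3, 3 to 6, and 0 to 7. At 0 h it gave 0 to 2 in place of 0. The replicate number as a block, used in the storage comparisons, moved the downward calls among further chaperone genes in RV at 8 h from 2 to 4. It moved no other count of them by over 1.5 times. Same-numbered libraries of LV at 0 h and after storage did not deviate together (r from -0.02 to 0.26), whereas those of LV at 4 h and 8 h did (r from 0.358 to 0.568). Differences in Hspa8 transcript share changed sign across left-out libraries, from -0.87 to 2.66 percentage points in LV and -6.70 to 4.76 in RV, as did that of Hsph1 in RV, from -2.06 to 1.67, all without passing the test.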
